A study of Strongylocentrotus purpuratus with 17 samples.

Results

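Transcribed regulatory elements of purple sea urchin embryos (Strongylocentrotus purpuratus) at 20 h of development were set against those at 72 h. The members were every dREG peak of both stages, 37796 elements at 20 h and 4425 at 72 h, of 128949 elements in the 4 lists of the series. A 20 h element counted as shared where it overlapped a 72 h element by at least 1 bp on the same scaffold. The choice of members used no measured value other than the calls themselves.

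Embryos of genotype Wild were grown at 15 °C and their nuclei were taken for PRO-seq, a run-on assay that labels and sequences the RNA of polymerases engaged on the DNA. The 20 h list came from 5 libraries, which by their titles were 4 biological replicates and samples of earlier work analysed again. The 72 h list came from 2 libraries of 2 biological replicates, and the quick PRO-seq libraries of that stage were not used. All groups were whole embryos of the same genotype, and the stage was taken from the titles because the tissue label names the 8 h embryo for every library. The lists hold positions only, so the labelled stage could not be checked against marker genes.

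Each stage had 1 pooled list. No value below therefore has a replicate error and no test between stages was made. Wilson 95% intervals are given for shares and cover counting error only. The number of reads behind an element is unknown, and stage, depth and set of libraries cannot be told apart in this comparison. In whole embryos, an element used in fewer cells and one used less in each cell cannot be told apart either.

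dREG finds sites where polymerases start in both directions. Active promoters and active enhancers both have this form. Promoters lie at gene starts, and enhancers lie between genes or in introns, often several to a developmental regulator gene, where each can drive expression in a different tissue. The gene table used here has no strand, so a gene's start and its other end were treated alike. A gene-end element is one within 500 bp of either end of a gene. Other elements were called inside or between genes by their midpoint.

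Of the 20 h elements, 4083, or 10.8% (95% interval 10.5 to 11.1), were called again at 72 h. In the other direction, 4116 of the 72 h elements, or 93.0%, had a 20 h element. Measured in bases, 2.46 Mb lay in both lists, which was 9.0% of the bases at 20 h and 90.3% of those at 72 h. Just inside the rule, 26 shared elements met their 72 h partner over less than 100 bp, and just outside it, 40 elements that were not shared had a 72 h element within 100 bp. The share depended on how much overlap was asked for. It was 10.73% with at least 100 bp, 7.19% with 50% of the 20 h element covered and 7.02% with 50% of both elements. On the 21 scaffolds with placed genes the share ran from 7.21% to 13.5%, with a median of 10.7%.

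Width separated the elements that were called again from those that were not. Shared 20 h elements had a median width of 1030 bp (quartiles 750 and 1300), against 600 bp (500 and 780) for the others. From the narrowest to the widest quintile of the list the share was 2.61%, 2.94%, 5.20%, 10.9% and 33.1%. It went on rising within the widest quintile. At 1010 to 1250 bp 29.1% were shared, at 1260 to 1500 bp 39.5%, at 1510 to 2000 bp 54.9%, and above 2000 bp 74 of 115, or 64.3% (55.3 to 72.5). The widest quintile supplied 59.9% of all shared elements. A wide element meets the rule of 1 bp more easily, and the gap between the widest and the narrowest quintile, 30.49 percentage points, was 23.97 when the midpoint of the 20 h element had to lie in a 72 h element and 13.62 when 50% of both elements had to overlap. With the 20 h list cut to its 4425 widest elements, 39.80% were shared.

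Width alone did not decide the call. The widest 20 h element of all, 2950 bp at an end of LOC577764 (scaffold NW_022145597.1, 31676591 to 31679540), was not called at 72 h. The next widest, 2870 bp at an end of LOC582848 (NW_022145596.1, 28371261 to 28374130), was called there with 1080 bp. Both had also been called at 8 h and 12 h. At the narrow end, 204 of 7820 elements of 490 bp or less were called again.

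Gene context separated the elements too. Gene-end elements were shared in 24.1% of cases (23.3 to 24.9), elements inside genes in 4.95% (4.58 to 5.35) and elements between genes in 4.96% (4.59 to 5.37). Gene-end elements were 32.3% of the placed 20 h list and 69.8% of its shared elements. They were also wider, with a median of 810 bp against 600 bp inside and 580 bp between genes. With each class weighted to the width quintiles of the whole list, the shares were 17.1%, 6.18% and 6.52%. In every width quintile the gene-end share was the highest of the 3 contexts, from 6.90% against 1.36% and 1.72% in the narrowest to 42.8% against 17.0% and 18.9% in the widest.

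**Figure D1:**
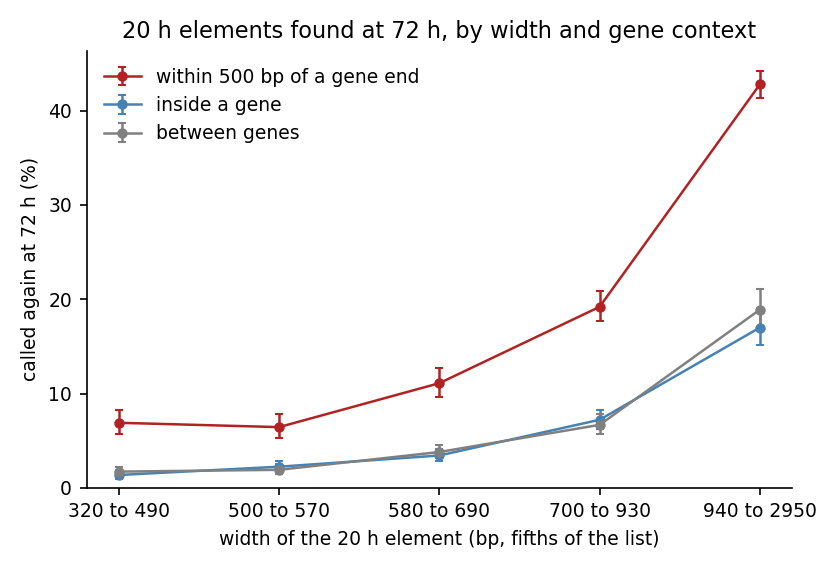
Share of 20 h elements called again at 72 h (vertical axis, percent) in 5 width quintiles of the 20 h list (horizontal axis, bp), for elements within 500 bp of a gene end, inside genes and between genes. Bars are Wilson 95% intervals. The gene-end line lies above the others in each quintile and reaches 42.8%, while the lines for elements inside and between genes run together and reach 17.0% and 18.9%.

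The share differed over a short distance from the gene end. Where the annotated end lay inside the 20 h element, 27.9% of 9352 elements were shared. Where the end lay outside it but within 500 bp, 7.62% of 2166 were, with a median width of 580 bp against 890 bp. Beyond that the shares were 5.18% at up to 2000 bp, 5.22% at up to 10000 bp and 4.47% farther away. Elements at the ends of 2 genes at once were shared in 49.5% of cases (46.5 to 52.5, n = 1068), against 21.4% (20.7 to 22.2, n = 10412) for those at 1 gene. For elements at 3 or more genes the share was 31.6% (19.1 to 47.5, n = 38), with a median width of 600 bp against 1020 bp at 2 genes. In the widest quintile the shares at 2 genes and at 1 gene were 64.1% and 39.3%.

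Lone and clustered elements were called again at nearly the same rate in the list as a whole, with a difference of -0.33 percentage points (95% interval -0.98 to 0.31). Clusters were formed by joining neighbouring 20 h elements across gaps of 2000 bp or less. Elements that stood alone were shared in 10.7% of cases (10.3 to 11.1, n = 23468). Those in pairs reached 10.6%, those in clusters of 3 to 4 elements 11.5%, and those in clusters of 5 or more 11.4% (9.75 to 13.3, n = 1217). The 1134 elements with no neighbour within 50 kb had a share of 6.44% (5.15 to 8.02), an interval that lies below that of all lone elements. They were narrow, with a median width of 560 bp.

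These near-equal shares joined unlike classes, since 34.6% of lone elements but 12.7% of elements in clusters of 5 or more lay at gene ends. Among gene-end elements alone the share was 22.9% for those standing alone, 24.0% in pairs, 31.7% in clusters of 3 to 4 and 37.4% (30.2 to 45.3, n = 155) in clusters of 5 or more. Weighted to the width quintiles of the whole list, these values were 16%, 18.0%, 23.0% and 22.2%. In the widest quintile of gene-end elements they were 40.3%, 46.0%, 53.7% and 67.2% (54.7 to 77.7, n = 61). Elements inside genes went from 3.88% alone to 7.11% in clusters of 5 or more, and elements between genes from 4.31% to 7.61%.

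**Figure D2:**
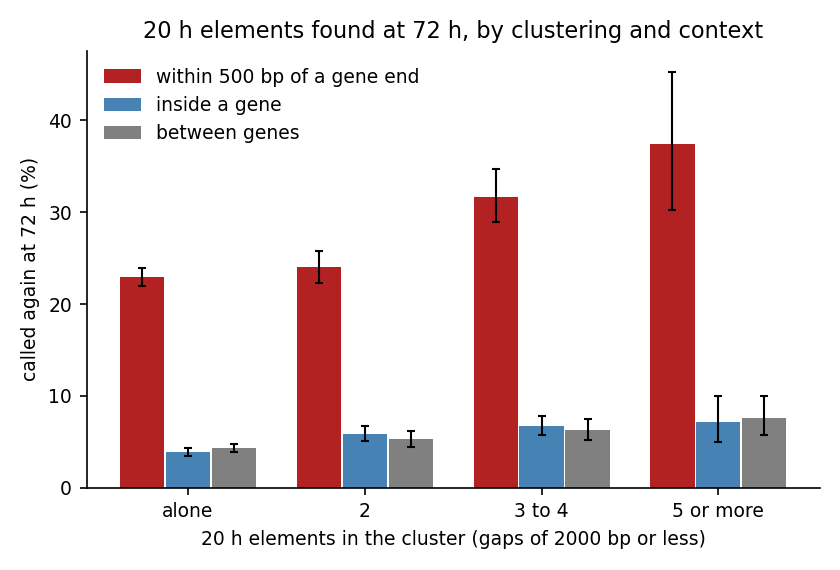
Share of 20 h elements called again at 72 h (vertical axis, percent) by the number of 20 h elements in their cluster (horizontal axis), with 1 bar for each gene context and Wilson 95% intervals. Gene-end bars run from 22.9% for lone elements to 37.4% in clusters of 5 or more, and the bars for the other contexts stay between 3.88% and 7.61%.

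Most clusters of 20 h held no shared element, and those that did mostly held 1. Of 4114 pairs, 19.2% held a shared element, and in 703 of these 789 pairs it was 1 element of the pair. Of 1508 clusters of 3 to 4, 30.4% held a shared element, and 8 kept all of theirs. Of 210 clusters of 5 or more, 44.3% (37.7 to 51.0) held a shared element, 57 of them exactly 1, and none kept all. A cluster with more elements has more chances to hold a shared one and is less likely to keep all. These shares of clusters therefore cannot be compared between cluster sizes. Where exactly 1 element was shared, it was the widest of its cluster in 82.5% of pairs, 71.9% of clusters of 3 to 4 and 54.4% of larger clusters. An element picked at random is also less often the widest in a larger cluster, so these values cannot be compared between cluster sizes. In the 2109 clusters that mixed both kinds, 30.8% of gene-end elements were shared against 6.99% of the others.

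Among the clusters with 10 or more elements, the largest had 13 elements on scaffold NW_022145612.1 (37036531 to 37055600) and overlapped LOC581217. Of these 13, 2 were called again, both at least 990 bp wide, while the cluster's widths ran from 450 to 1790 bp. A cluster of 11 elements on NW_022145609.1 (27547311 to 27567020) held no gene-end element and kept 1 element, 1010 bp wide, among widths of 440 to 1780 bp. The others of this size kept 3 of 10, 3 of 11, 2 of 10 and 3 of 10 elements, against 10.8% of all 20 h elements. In none of the 6 clusters of this size was an element narrower than 730 bp called at 72 h. Such calls were also rare in the whole list, at 2.61%, 2.94% and 5.20% in the narrowest quintiles, which reach 690 bp.

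The earlier stages separated the elements as well. Of the 20 h elements also called at both 8 h and 12 h, 22.0% (21.4 to 22.7, n = 16746) were shared with 72 h. The share was 3.90% for those called at 12 h and not at 8 h, 2.80% for those called at 8 h and not at 12 h, and 1.13% (0.958 to 1.32, n = 12783) for those called at neither. Weighted to equal widths, these were 16.8%, 4.42%, 3.30% and 1.61%. Of the shared elements, 90.3% had been called at both earlier stages, against 38.7% of the elements that were not shared. Among the widest gene-end elements, 1906 of 4166 called at both earlier stages were shared, or 45.8%, against 7 of 115, or 6.09% (2.98 to 12.0), of those new at 20 h.

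The borders of shared elements were compared in 3962 pairs in which 1 element of each list met 1 of the other. Nearly all elements were narrower at 72 h. The median width was 1030 bp at 20 h and 560 bp at 72 h, the median difference within pairs was -390 bp (quartiles -650 and -170), and 92.5% of pairs were narrower. The 72 h element lay wholly inside the 20 h element in 76.1% of pairs (74.7 to 77.4) and reached past both of its borders in 2.70%. Pairs that overlapped by 50% of both had a median difference of -250 bp. Over all pairs the lower border moved in by a median of 155 bp and the upper by 150 bp.

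The loss of width grew with the starting width. Pairs were grouped by the 20 h width, which is itself part of the difference, so such a trend can arise from the grouping alone. The median width at 72 h was 440 bp in the narrowest quintile and 610 bp in the widest. Pairs with 12 h and 8 h were not split by width. In the widest quintile the median went from 1230 to 610 bp, a ratio of 0.50, and 99.2% of pairs were narrower. In the narrowest quintile the ratio was 1.00, with 94 pairs narrower, 95 wider and 11 equal. Gene-end pairs had a ratio of 0.57, pairs inside genes 0.70 and pairs between genes 0.69. In the widest quintile these contexts differed little, at 0.50, 0.52 and 0.51.

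Narrowing on this scale was not seen in the same elements towards the earlier stages. In 3296 elements at 20 h that had a one-to-one partner at 72 h, 12 h and 8 h alike, the median width was 1060 bp. It was 570 bp at 72 h, 1060 bp at 12 h and 1150 bp at 8 h. The share narrower than at 20 h was 93.6%, 48.2% and 33.5%. The 72 h list has the fewest elements of the 4, and the 8 h list has the most (56158). By their titles the 2 libraries of 8 h come from 1 biological replicate and the 2 of 72 h from 2. The part of list length, depth and libraries in the narrower elements of 72 h was not tested.

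**Figure D3:**
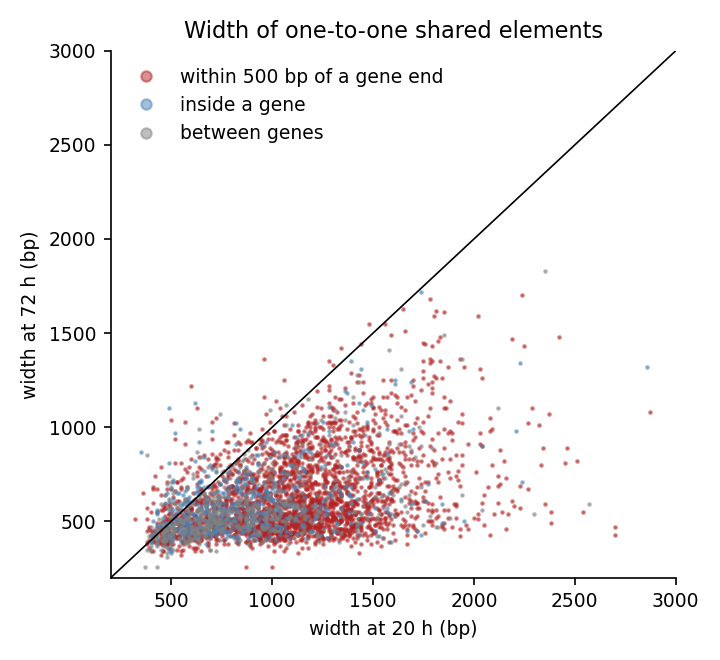
Width at 72 h (vertical axis, bp) against width at 20 h (horizontal axis, bp) of one-to-one shared elements on scaffolds with placed genes, 1 point per pair, coloured by gene context. The line marks equal width. Most points lie below it, and points at the right lie farther below it than points at the left. Over all 3962 pairs, including those on other scaffolds that are not drawn, the median goes from 1030 to 560 bp.

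The pairs with the greatest loss and gain mark the range. An element of 2700 bp at an end of LOC752967 (NW_022145614.1, 30305111 to 30307810) shrank to 430 bp, with 1170 bp lost at its lower and 1100 bp at its upper border. Another of 2700 bp at LOC593553 (NW_022145612.1, 58684861 to 58687560) kept 470 bp, and 2070 bp of its loss lay at the upper border. Near SPEC1, which encodes an ectodermal calcium-binding protein, an element of 2570 bp between genes, with its midpoint 18862 bp from that gene, kept 590 bp. The greatest gain was at LOC581646 (NW_022145596.1, 2331101 to 2331700), from 600 to 1220 bp, by 700 bp at the upper border.

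The border that moved most was, at gene ends, the one on the side of the gene. This was measured in 2057 pairs whose 20 h element had a single gene end within 500 bp. The border in the gene's direction moved in by a median of 310 bp (quartiles 90 and 530) and the outer border by 130 bp (40 and 260). The gene-side border moved more in 1367 pairs, or 66.5%, and the outer border in 660. At 20 h the element's centre lay a median of 152 bp inside the gene, and at 72 h 2 bp inside it. The unsigned distance from centre to gene end went from 184 to 73 bp, and the centre came nearer in 1406 pairs and moved farther in 618.

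This asymmetry was seen in the wider elements. In the widest quintile the medians were 420 and 160 bp and the gene-side border moved more in 72.9% of 1449 pairs. In the fourth quintile it did so in 55.1%, and in the third and the narrowest in 42.3% and 49.2%. By position, the gene-side border moved more in 66.3% of pairs at lower and 66.6% at upper gene ends. Without strand, both groups can hold gene starts and other ends, so these values do not compare starts with other ends. Of the same 1810 elements paired at all stages, the centre lay 159 bp inside the gene at 20 h, 161 bp at 12 h, 147 bp at 8 h and 2 bp at 72 h. Towards 12 h and 8 h the gene-side border moved in more in 48.0% and 49.3% of pairs, against 67.4% towards 72 h.

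**Figure D4:**
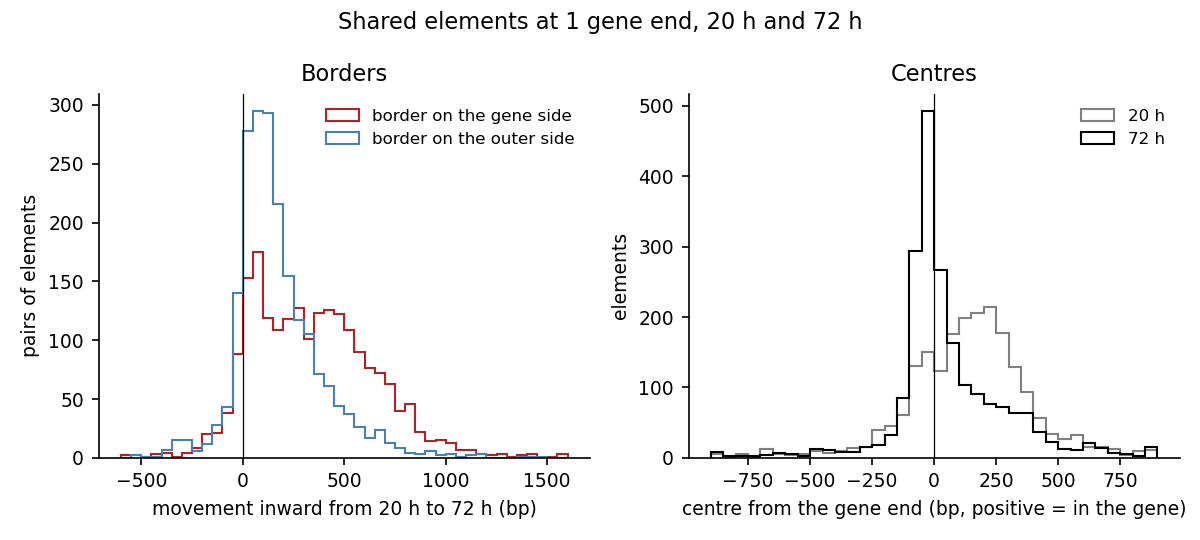
Shared elements with 1 gene end within 500 bp (2057 pairs). Left, number of pairs by the inward movement of each border from 20 h to 72 h (bp, bins of 50 bp, values beyond the axis counted in the outermost bins): the gene-side border has, beside a peak at small movements, a broad rise around 500 bp and a median of 310 bp, and the outer border has a median of 130 bp. Right, number of elements by the position of their centre from the gene end (bp, positive into the gene): the centres have a median of 152 bp at 20 h and gather around the gene end at 72 h, with a median of 2 bp.

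Some elements changed in number as well as in width. At 72 h, 63 of the 20 h elements held 2 or more separate elements, with a median gap of 90 bp between them. They were wide, with a median of 1570 bp, and 53 of the 62 that could be placed lay at gene ends. The single element that held 3 was 2380 bp wide, at an end of LOC589953 (NW_022145606.1, 8315991 to 8318370), and its parts at 72 h were 430, 630 and 530 bp. The reverse, a 72 h element across 2 elements of 20 h, occurred 31 times. At HMG1, elements of 1480 and 590 bp at 20 h, 60 bp apart, lay under a 72 h element of 2000 bp (NW_022145596.1, 1587321 to 1589320).

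At the level of genes, the end with an element at 72 h was in most cases an end with one at 20 h. A gene-end element was found at 43.2% of the placed protein-coding genes at 20 h and at 12.4% at 72 h. Of the 10695 genes that had one at 20 h, 3019, or 28.2%, had one at 72 h. Among genes of at least 2000 bp with an element at 1 of their ends at 20 h (9980), 2775 had an element at that same end only at 72 h, 18 at the other end only and 13 at both. Of 441 genes with elements at both ends at 20 h, 8 kept both, 132 had 1 and 301 had none.

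For developmental genes, 11 lists were used, from skeletogenic, endoderm and ectoderm regulators to gamete and histone genes. The lists hold 100 genes, of which 98 were placed. An element counted towards a gene by its midpoint, in the gene body or within 10 kb of it. Listed genes had a median of 4 elements in this neighbourhood at 20 h (protein-coding genes 1) and 1 at 72 h (protein-coding genes 0). For named protein-coding genes outside the lists the medians were 2 and 0. The neighbourhood includes the gene body, and gene length was not adjusted for. Of the 89 listed genes with a 20 h element, 46 had a shared one, against 29.4% of all protein-coding genes with a 20 h element. Among the 134 named protein-coding genes outside the lists that had a 20 h element, 60 had a shared one. A gene with more elements has more chances to hold a shared one, and 14.8% of all protein-coding genes with 1 element did, against 70.5% of those with 10 or more. Per element the order was the reverse: summed over genes, 14.8% of elements were shared at genes with 1 element and 10.3% at genes with 10 or more. Counted per element, the share was 14.3% at listed genes, 13.7% at all protein-coding genes and 16.9% at the named genes outside the lists.

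In these neighbourhoods the elements called again lay mostly at the gene's own end. Of 72 elements at the ends of listed genes, 39 were shared, or 54.2% (42.7 to 65.2). Of their 344 other neighbourhood elements 22 were, or 6.40% (4.26 to 9.49). Over all protein-coding genes the shares were 24.6% and 5.51%. In that count every element at an end of a protein-coding gene was an own-end element. The other elements of listed genes can lie at ends of genes outside the lists, so 6.40% and 5.51% are not like measures. Counted by gene, 38 of 56 listed genes with a gene-end element at 20 h also had one at 72 h. The same held for 47 of 102 named protein-coding genes outside the lists and for 28.2% of all protein-coding genes. The own-end elements of listed genes had a median width of 985 bp at 20 h, against 830 bp over all protein-coding genes.

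By list the own-end counts were small and their intervals wide. Endoderm genes had 5 of 7 shared, ectoderm genes 9 of 13, homeobox genes 13 of 19, apical and nervous genes 5 of 7 and early zygotic genes 6 of 9. Skeletogenic genes had 5 of 15 (15.2% to 58.3%) and signalling genes 5 of 9. Gamete genes, whose products act in fertilization, had 0 of 5, which with so few elements allows up to 43.4%. Lists share members, so these counts are not independent. The lists also differed in the median width of their own-end elements at 20 h. It was 730 bp for skeletogenic and 550 bp for gamete genes, and 950 to 1130 bp for the other lists named so far. The part of width in the shares by list was not tested. Of the other elements, early zygotic genes kept 7 of 45, or 15.6% (7.75 to 28.8), apical and nervous genes 3 of 25, ectoderm genes 6 of 60, homeobox genes 4 of 79, signalling genes 2 of 41, endoderm genes 2 of 49 and skeletogenic genes 1 of 64, or 1.56% (0.276 to 8.33).

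Several neighbourhoods with many elements at 20 h held none of them at 72 h. This was not rare among genes with so many elements. Over all protein-coding genes with 4 to 6 elements, 46.4% held a shared one. The share was 61.1% with 7 to 9 elements and 70.5% with 10 or more. GATAc, a zinc finger regulator gene of the nonskeletogenic mesoderm (between 11500266 and 11556165 of NW_022145612.1), had 17 elements of 410 to 1560 bp at 20 h, with 14 of them inside the gene and none at its ends. None was called at 72 h. COLP4alpha, a collagen gene, had 12 elements, including 1 of 720 bp at its upper end, and none was called again. Its neighbourhood overlaps that of COLP3alpha, and its widest element, 1380 bp, lay at the lower end of COLP3alpha. SM29, a spicule matrix gene of the skeleton, had 8 elements of at most 750 bp, of which 7 were new at 20 h, and none remained. SpRunt-1, a Runt-domain regulator gene, had 9, and gcm, a regulator of pigment cells, had 6, its gene-end element 1090 bp wide. Neither had any at 72 h.

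Other regulators kept only the element at their own end. Tbx2/3, a T-box gene of the ectoderm, had 13 elements, and its gene-end element went from 1050 to 960 bp, while a wider neighbour of 1810 bp just above it was not called again. GATAe, an endoderm regulator, had 9 elements and kept its gene-end element, from 1050 to 580 bp. FoxA, a forkhead regulator of endoderm, had 8 and kept its gene-end element, which went from 740 to 800 bp. The signalling ligand gene wnt1 had 10 and kept the element at its upper end, from 910 to 580 bp. The 7 other elements of FoxA included 6 called at neither earlier stage.

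A few kept elements away from their ends too. SpAN, a metalloprotease gene of the early embryo, had 8 elements at 20 h and kept 4, of which 1 lay at an end of SpAN itself. ARS, an arylsulfatase gene of the aboral ectoderm, kept 3 of 8, with widths going from 1630 to 910 bp, from 1120 to 870 bp and from 1160 to 540 bp. The homeobox genes Dlx and otx kept 3 of 13 and 3 of 12. At otx the gene-end element went from 1670 to 710 bp, and an element of 580 bp inside the gene was 610 bp at 72 h. SoxB1, an HMG-box regulator of ectoderm and nervous system, kept 3 of 6. Among named genes outside the lists, Sdc, which encodes syndecan, kept 3 of 11, suPaxB, a Pax family gene, 3 of 7 and EGF2 2 of 7, and the microRNA genes Mir92b and Mir92c, whose neighbourhoods overlap, 3 each. Those with most elements and none kept were soxd1 (8), EGFIII, Mir2003 (7 each), SPIH (6) and Mir9 (5).

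**Figure D5:**
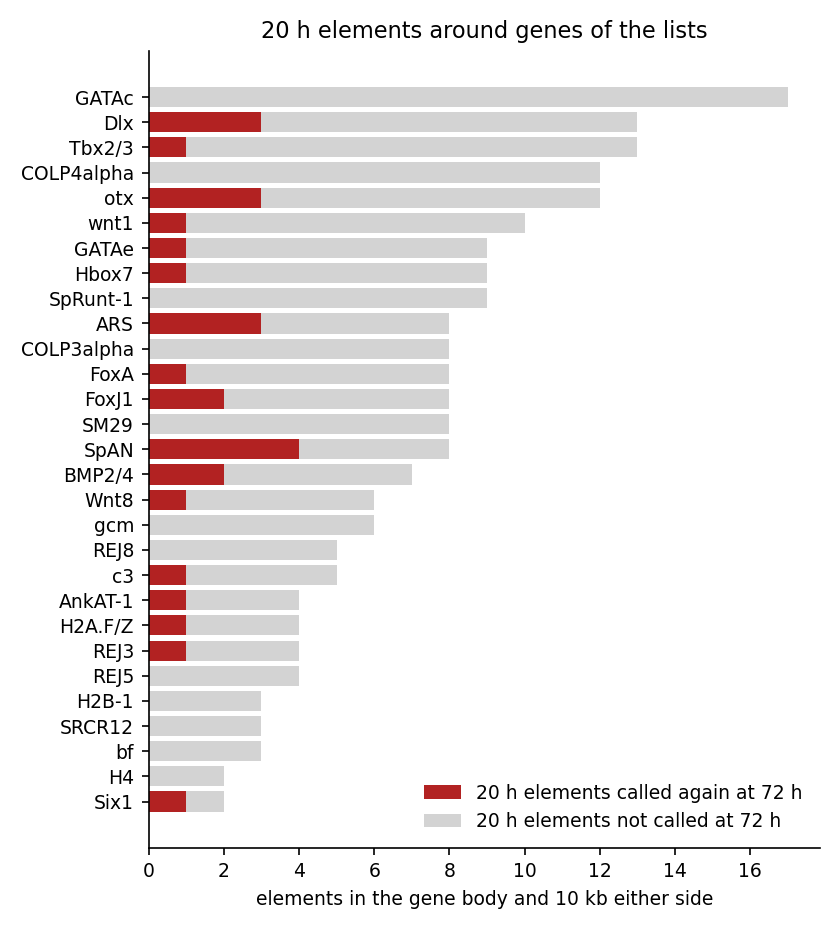
Number of 20 h elements in the gene body and 10 kb either side (horizontal axis) for the genes with most elements in each of 11 lists. Red parts are elements called again at 72 h and grey parts are elements that were not. Most bars are grey with a red part of 1 element or none. SpAN has the longest red part, 4 of 8, and GATAc the longest bar, 17 elements with no red part.

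Own-end elements of listed genes had a higher median width ratio than those of protein-coding genes in general, a difference that was not tested. Over 38 pairs the ratio of 72 h to 20 h width was 0.68, against 0.56 over all 2527 protein-coding pairs. In 6 of the 38 the element was not narrower at 72 h, or 15.8%, against 5.42% over all. These 6 were FoxA, lox, a ParaHox gene of the gut (700 to 790 bp), AnkAT-1 of the apical plate (1060 to 1250 bp), the neural regulator SoxB2 (870 to 920 bp), and the ligand genes FGF (710 to 800 bp) and BMP2/4 (810 to 880 bp). Of these, lox, SoxB2 and FGF were named after their values were seen, as were SoxB1, BMP1, Ets4, LOC581217 and LOC589953. At the other end of the range, the gene-end elements of BMP1, a metalloprotease gene, and Ets4, an Ets family regulator, went from 2230 to 690 bp and from 2460 to 890 bp.

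The 309 elements of 72 h without a 20 h element were few and narrow. Their median width was 490 bp, against 560 bp for the others. A 20 h element lay within 500 bp of 30 of them, at 500 to 10000 bp of 186 and farther from 93. About as many had been called at 8 h or 12 h (151) as at neither (158). Of the 287 that could be placed, 102 lay at gene ends, 99 inside and 86 between genes, a gene-end share of 35.5% (30.2 to 41.2) against 69.0% (67.6 to 70.5) for the 72 h elements also called at 20 h.

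Of these, 7 lay near listed genes. The Hedgehog ligand gene hh had an element of 800 bp at its lower end, called at no other stage, and 1 of 510 bp inside, 70 bp from a 20 h element. The endoderm regulator blimp1/krox had 1 of 530 bp at its lower end, and the collagen genes COLP1alpha and COLP2alpha had 1 each of 540 and 660 bp at a gene end. REJ9, a gene of the sperm receptor for egg jelly family, had 1 of 740 bp. Those of blimp1/krox, COLP1alpha, COLP2alpha and REJ9, and the 1 inside hh, had also been called at 8 h and not at 12 h. Inside Hbox7, a homeobox gene, 1 of 440 bp was called at 72 h alone. Other than Hbox7, these genes were named after their values were seen.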

How the data were processed

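PRO-seq elements were compared between 20 h and 72 h. The authors deposited 1 list of dREG peaks per stage, pooled over its libraries, with 3 columns (scaffold, start, end), given on the Sp 5.0 genome per the labels. The deposited values are positions in bp, with no score, p-value or count, so the depth of each library is unknown. No source used here gives the aligner, the caller's settings or how libraries were pooled. All positions fell on steps of 10 bp.

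From these lists, overlaps, widths, borders, clusters and neighbourhoods were computed with Python 3.11.15, pandas 2.3.3, NumPy 2.4.6 and SciPy 1.17.1, and overlaps were checked with bedtools 2.31.1 and tested on simulated lists. Figures were drawn with matplotlib 3.10.9. Genes came from a RefSeq table of Spur_5.0 without scaffold or strand. Runs of at least 900 genes with increasing start were placed on the scaffold with the highest share of gene ends at most 500 bp from 8 h elements. This placed 30064 of 33490 genes on 21 scaffolds, with 18.8% to 33.6% of gene ends near an element there and 8.30% to 14.2% on the next best, so gene context rests on an inferred scaffold. Distances are in bp, coordinates count from 1.

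Samples were grouped by title. No test was made, because each stage has 1 list. Wilson 95% intervals cover counting error only. The members and gene lists were chosen with earlier results of these data known. Named genes were, in each list, the 3 with most 20 h elements, and outside the lists, among symbols that name a single gene and no transfer RNA, the 5 with most shared elements and the 5 with most elements and none shared, plus genes at the 5 elements or pairs at each extreme of width and at the 5 elements of 72 h over most 20 h elements. Alternatives covered the overlap rule, list length, cluster gap, gene-end window, width weighting, merging and neighbourhood size.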

Additional observations from a re-analysis of the deposited data

How the results depend on the processing

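No paired analysis was possible because each stage has 1 pooled list, and for the same reason no replicate could be left out. Of 41 alternatives, 18 stayed within the counting interval of the reported value. None of the differences changed sign. Shares and numbers of elements cannot be negative, so their alternatives could not turn a direction. The share of 20 h elements called again was 7.19% when 50% of the 20 h element had to be covered, 7.02% for 50% of both, 39.80% with the 20 h list cut to its widest elements and 11.12% on placed scaffolds. The difference in share between the widest and narrowest quintile, 30.49 percentage points, was 23.97 by midpoint, 13.62 for 50% of both, 35.86 at gene ends, 16.39 away from them and 32.70 among elements called at both earlier stages. Lone minus clustered elements, -0.33 points, came to -1.46 with the widest gap tried, -3.90 at gene ends and -2.00 away from them. Gene-end minus other elements, 19.12 points, came to 20.48, 16.99 and 13.91 with windows of 250, 1000 and 2000 bp, 10.77 weighted to width, and 18.77 to 19.37 without 1 scaffold. The median width difference was -250 bp for 50% of both, -470 bp at gene ends and -240 bp away from them. The share of 72 h elements inside their 20 h element was 79.48% with 10 bp of slack and 87.61% with 50 bp. The median of 4 neighbourhood elements at 20 h was 1 in the gene body and 10.5 with 50 kb. The gene-side excess in border movement, 170 bp, ran from 160 to 170 bp over 4 alternatives. Stricter overlap rules, subsets and other windows differ from the reported setting by construction, and any further cause was not tested. Alternatives on earlier stages, on clusters of 3 or more and on the gene side were chosen after seeing the data. Unknown depth limits all shares: an element not called at 72 h is missing from that list, and is not shown to be absent from the embryos.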

Other observations

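Gene-end elements differed by the kind of gene. At transfer RNA genes 106 of 332 gene-end elements of 20 h were called again, or 31.9% (27.1 to 37.1), although their median width of 550 bp was below the 830 bp at protein-coding genes, where 24.6% were called again. At long noncoding RNA genes it was 14.9% (12.3 to 18.0) of 583 elements with a median width of 670 bp. Small nuclear RNA genes had 10 of 43. Transfer RNA genes have many near-identical copies, and how reads of such copies were counted is not given in the sources used here.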
